A study of Mus musculus with 32 samples.

Results

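Interleukin-15 and the receptor chains that it shares with interleukin-2 were examined across dendritic cell (DC) subsets of mouse skin-draining lymph node. The set holds 4 genes: Il15, which encodes the cytokine; Il15ra, its high-affinity receptor chain; Il2ra, the CD25 chain that raises the affinity for IL-2; and Il2rb, the CD122 chain that signals for both cytokines. The genes were chosen by name, after an earlier look at the same peak lists had shown Il2ra with more regions called in migratory than in resident DCs. Every migratory against resident value below is therefore a description, and no p is given for it. An accessible region belonged to the set if its midpoint lay in the body of 1 of the 4 genes or, between genes, if a member was the nearest gene within 50 kb. This gave 40 regions of the 90465 found over all 32 libraries, of which Il2ra had 14, Il15 had 13, Il2rb had 7 and Il15ra had 6. They held 855 of the 1786289 peaks that the authors' lists place on the autosomes and X.

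The libraries are ATAC-seq, which marks open chromatin by the insertion of a transposase, on sorted cells. The floxed cohort has 28 libraries. Cre-positive mice (CD11cCREpos/IFNgr1flfl) carry a CD11c-driven Cre recombinase and the floxed allele of Ifngr1, the ligand-binding chain of the interferon-gamma receptor. Cre-negative mice (CD11cCREneg/IFNgr1flfl) carry the same floxed allele without the Cre, and loss of Ifngr1 in the Cre-positive cells depends on CD11c activity. Each genotype gave 2 libraries of migDC1 (CD103 in the label), 3 of migDC2 (CD11b) and 3 of DN migDC (a label that names CD11b and CD103), which are the migratory subsets. Each also gave 3 libraries of lymph node resident cDC1 (CD8a) and 3 of resident cDC2 (CD11b). A germline cohort adds 2 migDC2 libraries of IFNgr1-/- mice and 2 of WT mice. The sources used here do not give age, sex or pooling of the mice, and do not say whether libraries of 1 group are from different mice. A p below thus speaks of the spread among libraries, which may be technical.

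A DC that presents IL-15 displays it bound to IL-15 receptor alpha on its own surface, and a neighbouring T or NK cell receives it through CD122 and the common gamma chain. Maturing DCs are also known to carry CD25, with which they can offer IL-2 to T cells. The signalling chains act through JAK1, JAK3 and STAT5. Interferons raise Il15 and Il15ra in myeloid cells, which is the textbook link between these genes and the interferon-gamma receptor.

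The lists held 38455 to 74975 peaks in floxed libraries and 32649 to 42446 in germline ones. Migratory floxed lists had a median of 60740 peaks and resident ones of 55762, and the cDC2 lists had the lowest median of the floxed subsets, at 46709 (38455 to 56115). Peak lists carry no read counts, so depth is unknown. A peak in a few cells and a weak peak in all cells of a sort cannot be told apart. All resident libraries and 4 of the 16 migratory ones carry plain numbered titles, and the other 12 migratory ones carry lettered titles. Subset and title style therefore cannot be fully told apart. Every migDC1 library is lettered and every cDC1 library is plain, so for that pair they cannot be told apart at all. Markers of migratory DCs (Ccr7, Fscn1, Ccl22, Cd40 and Relb) had 24 to 47 of their 49 regions called in migratory libraries, against 14 to 24 in resident ones. For markers of other cells, the T cell list had 22 to 33 of 42 regions called in migratory libraries and 11 to 31 in resident ones. The NK and innate lymphoid list had 15 to 27 of 33 in migratory libraries and 12 to 25 in resident ones. The B cell list had 6 to 23 of 28 in migratory libraries and 2 to 11 in resident ones. No region, which needs a peak in at least 3 libraries, was found at Foxp3 or Gzma, which mark regulatory T cells and cytotoxic lymphocytes. Regions were found at the other 7 genes of each of the T cell and the NK and innate lymphoid lists. The 1 region of Cd3d was called in every floxed library, and the 1 region of Nkg7 in no migratory floxed library. The part of these cell types in the results below was not tested.

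The promoter sequences of the receptor alpha chains are shown first because the data split them: the Il2ra promoter lay in a region whose calls varied by subset, and the Il15ra promoters in a region called in all 32 libraries. The windows span 250 bases before to 50 after each RefSeq transcript start (GRCm38.p6, plus strand). Capitals mark matches to 6 searched motifs, which were a STAT5 site (TTCNNNGAA), an IRF site (GAAANNGAA), AP-1 (TGANTCA), NF-kB (GGAANTTCC), an ETS site of PU.1 (GAGGAAGT) and RUNX (TGTGGTT), each on both strands.
Il2ra, chr2:11642542-11642841: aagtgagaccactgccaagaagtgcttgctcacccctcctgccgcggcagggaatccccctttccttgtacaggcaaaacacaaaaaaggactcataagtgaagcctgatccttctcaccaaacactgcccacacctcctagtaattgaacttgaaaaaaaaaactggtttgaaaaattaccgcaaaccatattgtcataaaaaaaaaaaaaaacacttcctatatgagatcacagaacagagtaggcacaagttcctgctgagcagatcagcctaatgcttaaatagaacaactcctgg
Il15ra first start, chr2:11705043-11705342: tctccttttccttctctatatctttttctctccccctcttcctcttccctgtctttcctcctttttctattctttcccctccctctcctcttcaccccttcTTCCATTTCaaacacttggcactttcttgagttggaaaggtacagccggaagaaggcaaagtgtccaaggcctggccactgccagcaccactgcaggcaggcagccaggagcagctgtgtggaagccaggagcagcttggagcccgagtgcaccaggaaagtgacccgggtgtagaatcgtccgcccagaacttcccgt
Il15ra second start, chr2:11705462-11705761: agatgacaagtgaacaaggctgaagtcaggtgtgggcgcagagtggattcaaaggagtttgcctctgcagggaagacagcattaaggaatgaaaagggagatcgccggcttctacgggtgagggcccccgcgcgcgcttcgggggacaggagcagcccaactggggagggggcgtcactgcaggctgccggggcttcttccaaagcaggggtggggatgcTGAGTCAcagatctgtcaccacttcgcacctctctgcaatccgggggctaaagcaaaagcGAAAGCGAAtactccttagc

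The first Il15ra window held 1 IRF match on the minus strand, and the second held 1 AP-1 and 1 IRF match on the plus strand. The Il2ra window held none of the 6 motifs in these letters. Among 32817 RefSeq promoter windows of 300 bp, 8.55% held the IRF letters, 7.81% AP-1, 8.29% the STAT5 site, 5.27% RUNX, 3.2% the PU.1 site and 0.93% NF-kB. A match is a string of letters and does not show that a factor binds there.

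Regions are named by gene and by the distance of their midpoint, in kb. Il2ra (chr2:11642792-11693194) and Il15ra (chr2:11705172-11733985) lie next to each other on the plus strand, and their regions are counted from the gene start. For Il15 (chr8:82331624-82403252) and Il2rb (chr15:78479256-78511621) the sources used here do not give the strand, so their regions are counted from the upper coordinate end, with positive values running into the gene body. All coordinates are of mm10. Exons and introns were not used here.

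Over the 40 regions the migratory subsets had more peaks than the resident ones. Of the 28 regions that could be tested, having a call in at least 3 and none in at least 3 of the 28 floxed libraries, 17 passed as called more often in migratory DCs and 1 as called less often. The test was an exact conditional one, two-sided, on the number of libraries with a peak, adjusted over all tested regions by Benjamini-Hochberg at 0.05. The same comparison passed 25.0% of all 61445 tested regions as more often called and 15.1% as less often called. The other 12 regions were nearly or fully constant, 10 of them with a call in every floxed library. With equal list lengths the members gave 12 of 20 more often and 1 less often, of which 10 of the 12 were among the 17. The other 2 were Il15 +32.5 and -13.6 kb, and the lower one was Il2rb -3.2 kb, called among the kept peaks in 0 of 16 migratory libraries, against 5 of 12 resident ones, in place of Il15ra +17.6 kb. At that setting the split over all regions was 9856 more and 11695 less, against 15347 more and 9296 less with whole lists. Within plain-titled libraries alone, which include no migDC1 library, 11 of 22 members were more often called and 0 less often. Over all regions 9774 were more often and 1085 less often called at that setting. The regions that passed under every setting in which single regions were followed were Il2ra +2.7, +4.5, +12.7 and +44.3 kb, Il15ra +1.8 kb, and Il15 +4.5 and +30.2 kb. The settings with regions of at least 6 libraries, gene bodies only or genes of any kind gave counts only.

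**Figure D1:**
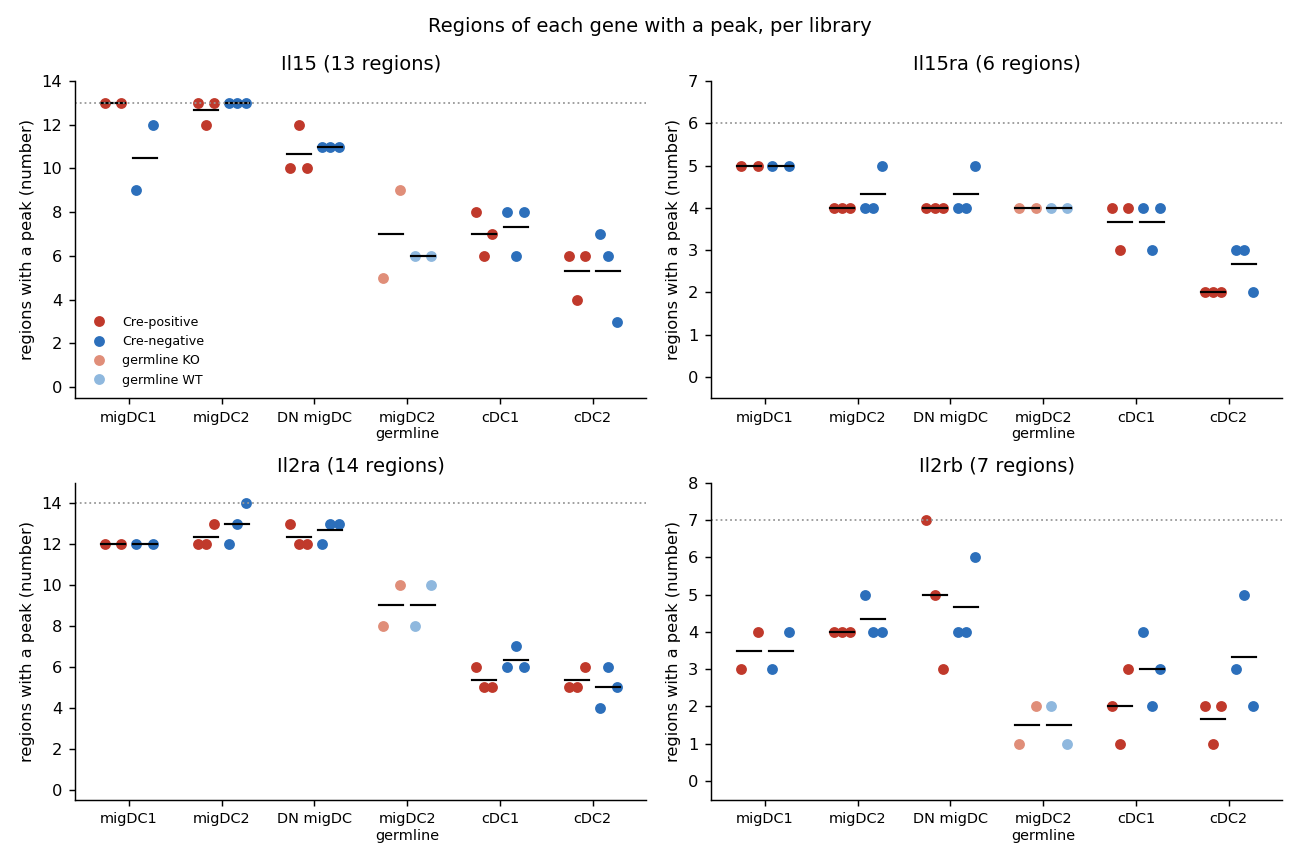
Number of regions with a peak (vertical axis) in each library, for each of the 4 genes; points are libraries, black bars are group means, and dotted lines mark the number of regions of the gene. All floxed migratory libraries lie above all resident ones for Il2ra (12 to 14 against 4 to 7), while the groups overlap for Il2rb.

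Il2ra had the widest gap. All 4 migDC1 libraries had 12 of its 14 regions called, and the mean was 12.67 ± 0.82 in migDC2 and 12.5 ± 0.55 in DN migDC (SD, n = 6 each). The resident means were 5.83 ± 0.75 in cDC1 and 5.17 ± 0.75 in cDC2 (SD, n = 6 each). The 3 migratory subsets differed from one another by no more than about 1 region, and cDC1 from cDC2 by less than 1, so the order of the levels is clear only between the migratory and the resident classes. Il15 followed with 11.75 ± 1.89 of 13 regions in migDC1, 12.83 ± 0.41 in migDC2 and 10.83 ± 0.75 in DN migDC, against 7.17 ± 0.98 in cDC1 and 5.33 ± 1.51 in cDC2. For Il15ra the means were 5.0 ± 0.0 of 6 in migDC1, 4.17 ± 0.41 in migDC2 and 4.17 ± 0.41 in DN migDC, against 3.67 ± 0.52 in cDC1 and 2.33 ± 0.52 in cDC2. The migDC2 and DN migDC ranges of Il15ra (4 to 5 each) met the cDC1 range (3 to 4). Il2rb had 3.5 ± 0.58 of 7 in migDC1, 4.17 ± 0.41 in migDC2 and 4.83 ± 1.47 in DN migDC, against 2.5 ± 1.05 in cDC1 and 2.5 ± 1.38 in cDC2, and its ranges overlapped between the classes. Lists differ in length, so each gene's percent of regions called was also set against that of all gene-assigned regions, in mean percentage points. In migDC1, migDC2, DN migDC, cDC1 and cDC2 in turn, Il2ra differed by 28.6, 24.1, 24.3, -22.2 and -13.6. Il15 differed by 33.3, 32.4, 18.4, -8.7 and -9.5, and Il15ra by 26.2, 3.1, 4.5, -2.7 and -11.6. Il2rb differed by -7.1, -6.8, 4.1, -28.1 and -14.8, so its mean lay below all regions in migDC1 and migDC2.

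**Figure D2:**
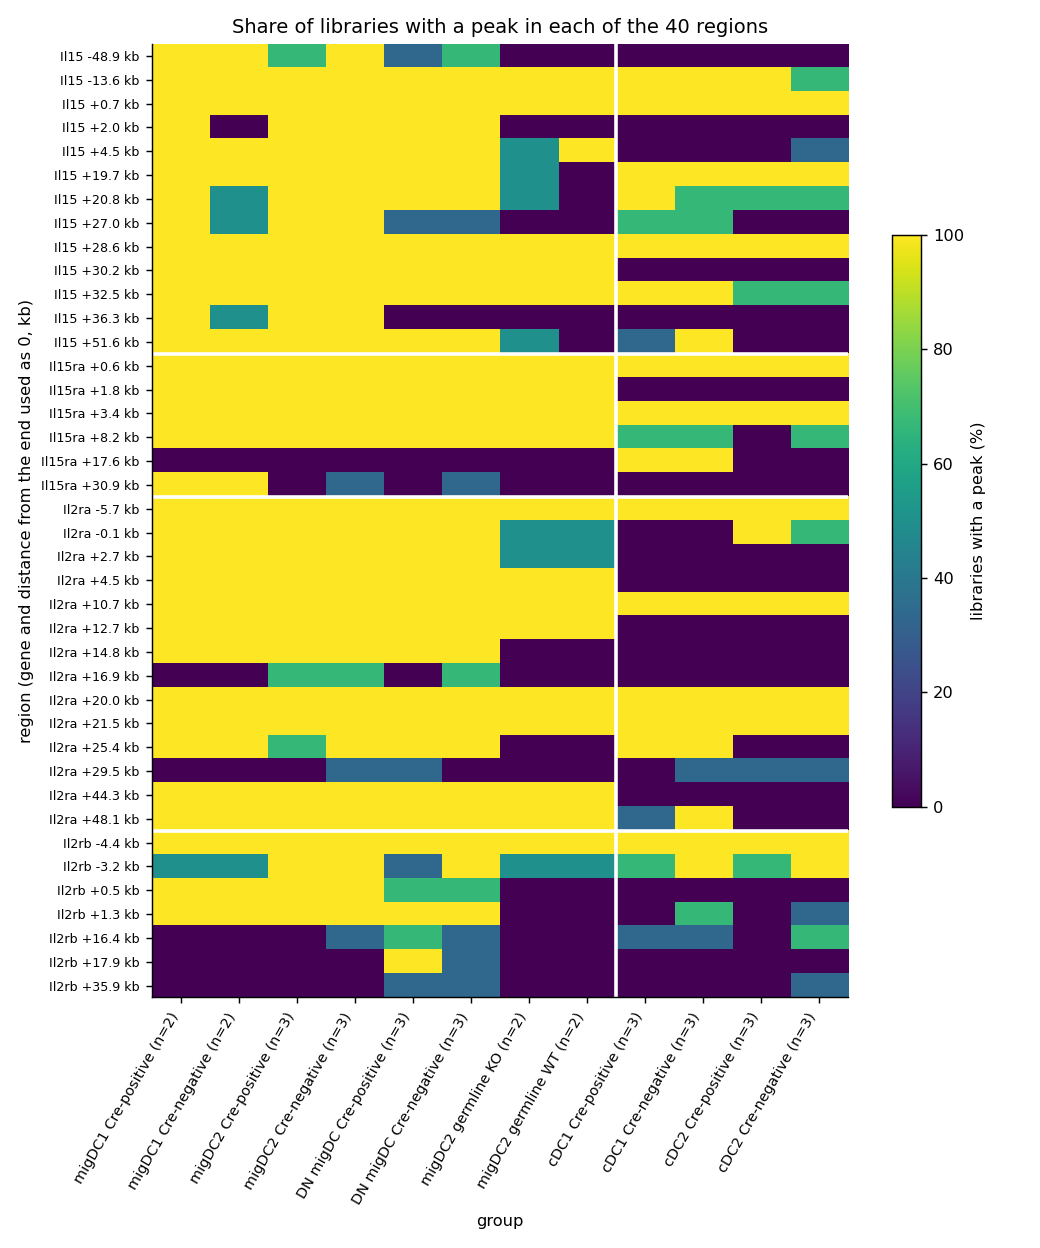
Share of libraries with a peak (colour, in percent) in each of the 40 regions (rows, ordered along each gene) and each of the 12 groups (columns, with the number of libraries). Rows such as Il2ra +4.5 kb, Il15ra +1.8 kb and Il15 +30.2 kb are full in every migratory column, germline included, and empty in every resident column.

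At Il2ra, 5 regions had a peak in 16 of 16 migratory and 0 of 12 resident floxed libraries. They lie at +2.7 kb (chr2:11645268-11645659), +4.5 kb (chr2:11646915-11647744), +12.7 kb (chr2:11654927-11656004), +14.8 kb (chr2:11657253-11657976) and +44.3 kb (chr2:11686431-11687747), all inside the gene body. They are named for that full split, and over all 61445 tested regions 3293 split as fully, in either direction. The +14.8 kb region did not pass with equal list lengths or a signal minimum of 400. A further 4 regions of Il2ra were called in all 28 floxed libraries, at -5.7 kb upstream and at +10.7, +20.0 and +21.5 kb in the gene body, so the resident cells also held open chromatin at this gene. The counts over Il2ra were 7 of 10 tested regions more often called and 0 less often, the value known before from the earlier look.

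The Il2ra promoter region at -0.1 kb (chr2:11642344-11643101), which holds the whole promoter window printed above, was called in 16 of 16 migratory libraries, against 5 of 12 resident ones. All 5 resident calls were in cDC2 (5 of 6), and none was in cDC1 (0 of 6). The region at +48.1 kb (chr2:11689978-11691800), near the far end of the gene, was called in 16 of 16 migratory libraries, in 4 of 6 cDC1 libraries and in 0 of 6 cDC2 libraries. The resident calls of the pair thus came from opposite subsets, and neither region passed between cDC2 and cDC1 over all libraries and whole lists. Neither passed between migratory and resident libraries within plain titles. Where cDC1 had the +48.1 kb peak its median width was 345.5 bp, against 1600 bp in migratory libraries.

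The within-list rank was used as a measure of peak strength, given as the percent of a library's peaks with a lower signal in the authors' files. Ranks come from lists of different length and are a description. How many of all regions had ranks without overlap between migratory and resident libraries was not counted. At Il2ra +10.7 kb (chr2:11652902-11654118), a region present everywhere, the peak outranked 93.2 to 95.2% of the list in migDC1, 89.9 to 95.1% in migDC2 and 87.1 to 94.1% in DN migDC. The same region outranked 26.6 to 65.4% in cDC1 and 46.2 to 67.1% in cDC2. All 16 migratory libraries thus ranked this peak above all 12 resident ones. At +48.1 kb the median rank was 95.2% over the migratory libraries and 19.7% over the 4 cDC1 libraries with a peak, the highest migratory median of any Il2ra region. The upstream region at -5.7 kb ranked alike, with a median of 85.6% in migratory and 83.1% in resident libraries. At the promoter region the peaks were weaker: a median of 20.6% in migDC1, 50.8% in migDC2, 42.8% in DN migDC and 21.1% in the 5 cDC2 libraries with a call.

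**Figure D3:**
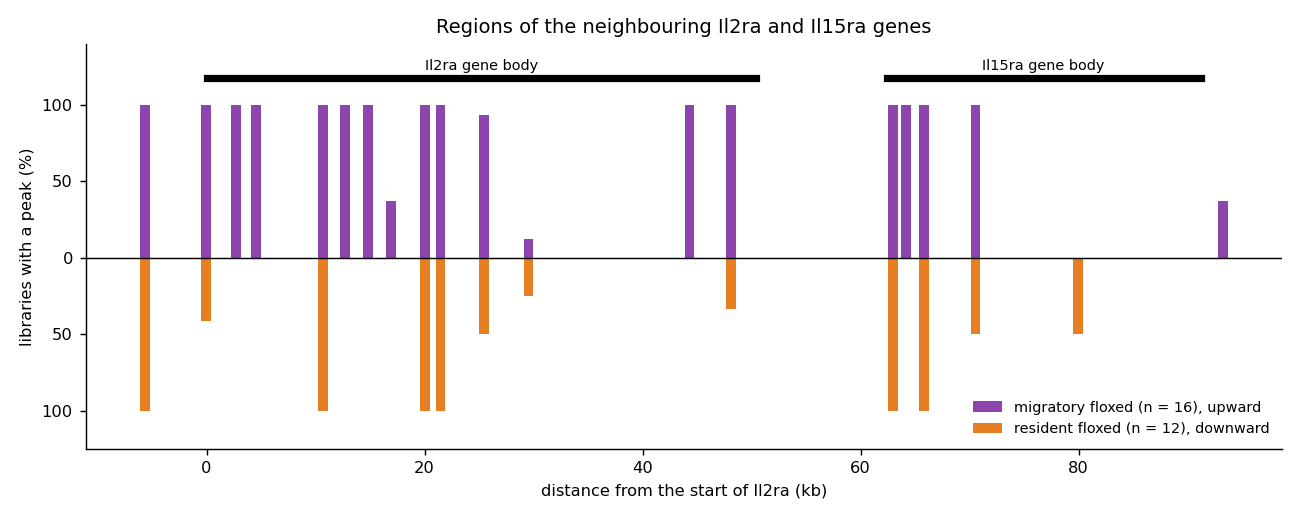
Share of migratory (upward, purple, n = 16) and resident (downward, orange, n = 12) floxed libraries with a peak in each region, by distance in kb from the start of Il2ra; black bars mark the gene bodies. At Il2ra 5 positions, and at Il15ra 1, have full upward and no downward bars, and 1 in Il15ra has only a downward bar.

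Il15ra starts about 12 kb past the end of Il2ra. Its promoter region at +0.6 kb (chr2:11705121-11706383), which covers the second promoter window and most of the first, was called in all 32 libraries. Its peak outranked 81.4 to 92.3% of the list in floxed migratory libraries and 46.0 to 72.2% in resident ones, with no overlap between those groups. In the germline migDC2 libraries it outranked 66.0 and 79.3% (WT) and 74.2 and 79.4% (KO). These values lay below the floxed migratory range, and the lowest lay within the resident range. How many of all regions split in this way was not counted. The next region, at +1.8 kb (chr2:11706532-11707421), had a peak in each of the 16 migratory libraries and in 0 of 12 resident ones. It ranked highest in migDC2, at a median of 61.0%, and lower in migDC1 (33.1%) and DN migDC (25.4%). In 1 migDC2 library (Cre-positive 2) a single peak of 2166 bp spanned both of these regions, and its rank of 92.3% is that of the joined peak. At +8.2 kb (chr2:11712571-11714092) a peak was present in 16 of 16 migratory and in 6 of 12 resident libraries. The resident peaks there were 206 to 278 bp wide with a median rank of 6.8%, against a median width of 1240 bp and a median rank of 76.9% in migratory libraries.

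A region of Il15ra ran the other way. At +17.6 kb (chr2:11722604-11722909) all 6 cDC1 libraries had a peak and none of the 16 migratory or 6 cDC2 libraries had one. It was the only member region less often called in migratory DCs. These peaks were narrow (252 to 353 bp) and ranked at 8.5 to 38.8%. The call was lost with equal list lengths, with a stricter signal minimum of 400 and within plain-titled or Cre-negative libraries. The region at +30.9 kb (chr2:11735859-11736232), which lies 2060 bp beyond the gene, was called in 4 of 4 migDC1, 1 of 6 migDC2 and 1 of 6 DN migDC libraries, and in 0 of 12 resident ones. Il15ra as a whole had 2 of 4 tested regions more often and 1 less often called in migratory DCs.

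Il15, the ligand gene, had a peak at +0.7 kb (chr8:82401616-82403571), next to its upper coordinate end, in all 32 libraries. It was the strongest peak of the gene in every migratory library, germline included, while the +19.7 kb peak was stronger in 3 resident libraries (2 of cDC2 and 1 of cDC1). The peak outranked 98.0 to 98.6% of the list in migDC1, 95.6 to 97.6% in migDC2 and 94.7 to 96.3% in DN migDC. In cDC1 it outranked 53.3 to 73.4% and in cDC2 25.3 to 65.2%, with no overlap between migratory and resident libraries. The number of all regions with such a split was not counted. At +30.2 kb (chr8:82372543-82373608) a peak was present in 16 of 16 migratory libraries, against 0 of 12 resident ones, at a median rank of 74.7%. At +4.5 kb (chr8:82398330-82399089) it was present in all 16 migratory libraries, and the 1 resident library with it was a Cre-negative cDC2 one. At +2.0 kb (chr8:82401073-82401421) the counts were 14 of 16 migratory and 0 of 12 resident libraries, where both missing migratory libraries were Cre-negative migDC1.

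Several Il15 regions varied among the subsets. At +51.6 kb (chr8:82351386-82351830) a peak was called in 16 of 16 migratory libraries, in 4 of 6 cDC1 libraries and in 0 of 6 cDC2 libraries. At +36.3 kb (chr8:82366571-82367328) it was called in 3 of 4 migDC1 and 6 of 6 migDC2 libraries, and in 0 of 6 DN migDC and 0 of 12 resident libraries. The intergenic region at -48.9 kb (chr8:82451812-82452408), 48858 bp out and the nearest to the 50 kb limit, had a peak in 12 of 16 migratory libraries, against 0 of 12 resident ones. The next region outward lay 55937 bp from Il15 and had a peak in 7 of 16 migratory libraries, against 0 of 12 resident ones. In all, 6 of the 8 tested Il15 regions were more often called in migratory DCs and 0 less often.

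**Figure D4:**
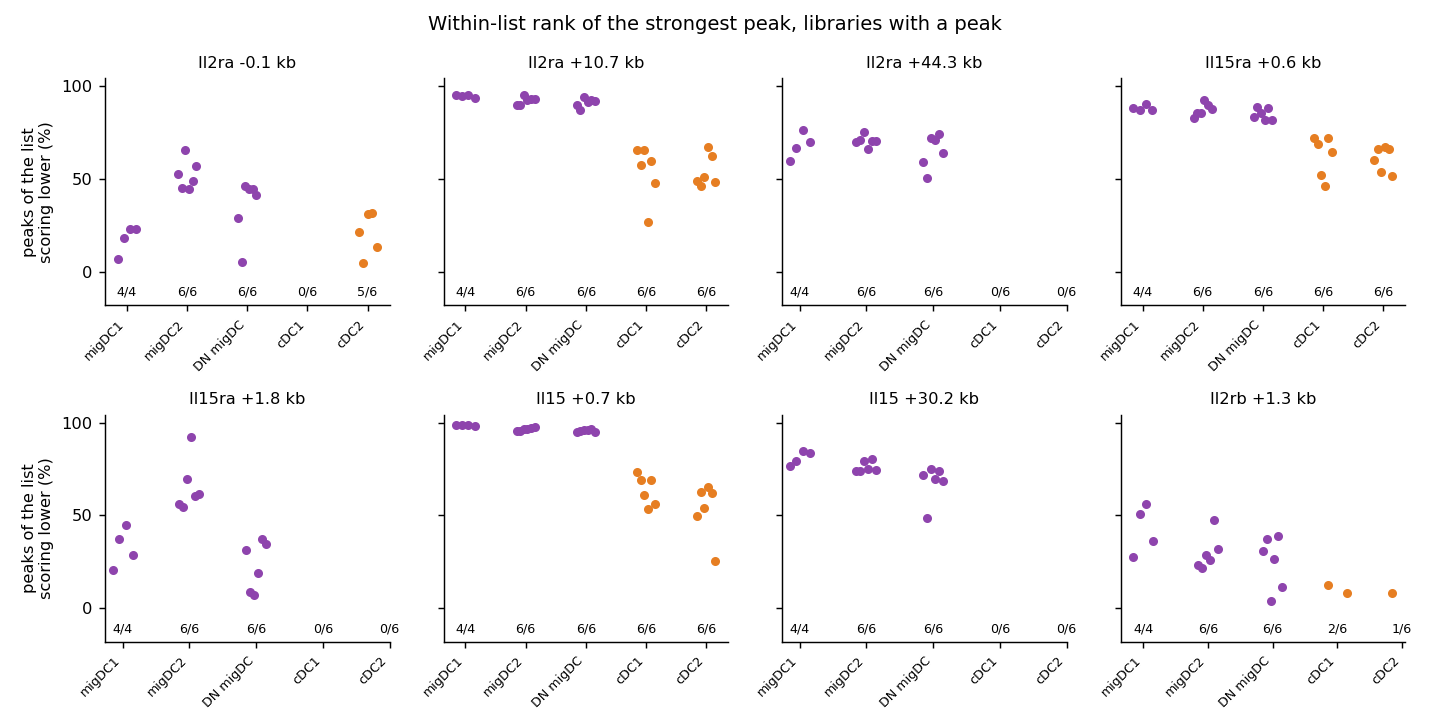
Rank of the strongest peak in 8 member regions, as the percent of the library's peaks with a lower signal (vertical axis), by subset in the floxed cohort; each point is a library with a peak, and the fraction under each column gives libraries with a peak over all libraries. Migratory points (purple) lie above all resident points (orange) at Il2ra +10.7 kb, Il15ra +0.6 kb and Il15 +0.7 kb. The share of all regions with such a split was not counted.

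Il2rb encodes the signalling chain. At +1.3 kb (chr15:78509948-78510674) a peak was called in 16 of 16 migratory libraries, against 3 of 12 resident ones (2 cDC1 and 1 cDC2, all Cre-negative). At +0.5 kb (chr15:78510910-78511312) a peak stood in 14 of 16 migratory libraries, against 0 of 12 resident ones, and both missing migratory libraries were DN migDC. Both ranked low, at medians of 29.9% and 18.8% of the list in migratory libraries. Neither was called in any germline library. The region at -4.4 kb (chr15:78515562-78516475) was called in all 32 libraries and had the highest median ranks of the gene, 53.1% in migratory and 68.8% in resident libraries, so here the resident peaks ranked higher, with overlapping ranges. Of the 6 tested Il2rb regions, 2 were more often called in migratory DCs and 0 less often, beside 25.0% and 15.1% of all regions. Both calls were lost with equal list lengths, +0.5 kb also at a signal minimum of 400, and +1.3 kb also within plain-titled or Cre-negative libraries.

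The split by subset pair gave the same picture from smaller groups that share their libraries with the comparison above. Between migDC1 and cDC1, 12 of 17 tested member regions were more often and 1 less often called, where 18.5% and 16.8% of all 36815 tested regions passed in those directions. The 12 were 6 of Il2ra, 3 of Il15, 2 of Il15ra and 1 of Il2rb. Every migDC1 library has a lettered title and every cDC1 library a plain one, so this difference cannot be told apart from title style. That count fell to 0 when any 1 of the 4 migDC1 libraries was left out. Each such omission raises the smallest p that the design allows, so the drop cannot show that a single library carried the calls. Between migDC2 and cDC2, 17 of 21 were more often and 0 less often called, where 37.2% and 4.02% of all 32756 tested regions passed, and 11 of 14, with 8 of the 17 among them, were more often called with equal list lengths. Here Il2ra and Il15 had 7 each, Il2rb 2 and Il15ra 1.

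Peak width could be compared at the 10 member regions that had a peak in every floxed library. The table of all 23390 such regions was fitted with limma on log2 width, with genotype as a covariate. In migratory against resident libraries 5 of the 10 passed as wider and 1 as narrower, where 9.76% and 19.7% of all fitted regions passed in those directions. The median log2 width difference was 0.18 over the 10 regions and -0.08 over all fitted regions.

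**Figure D5:**
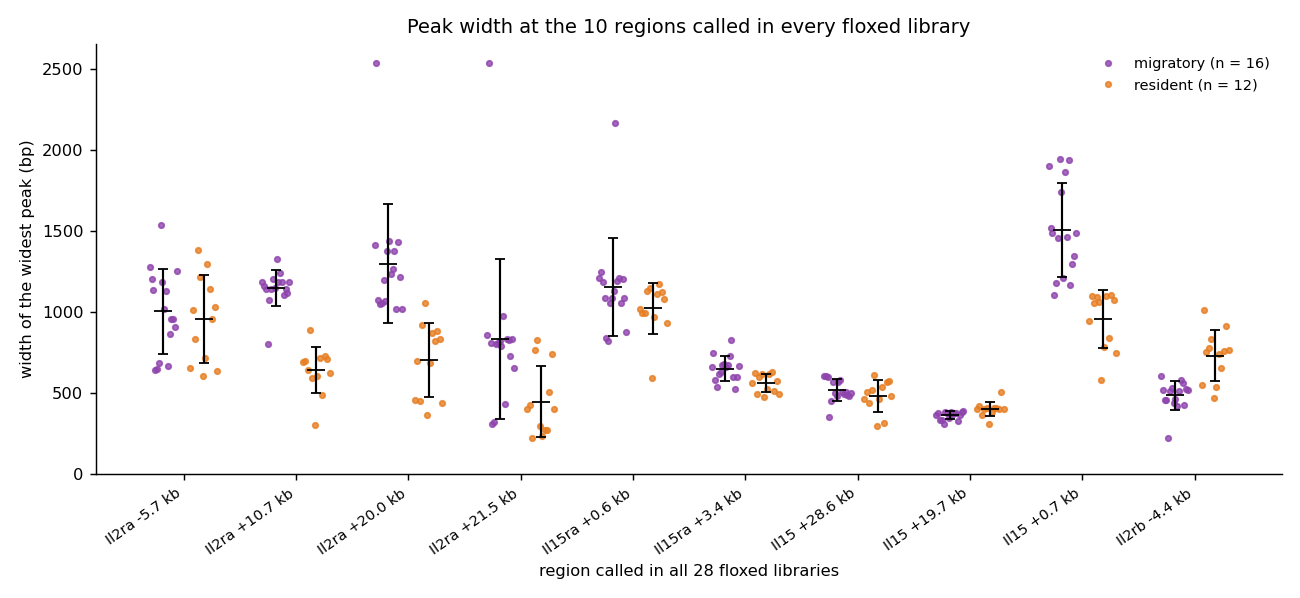
Width in bp of the widest peak (vertical axis) at the 10 member regions called in all 28 floxed libraries; points are libraries, purple migratory and orange resident, with mean and SD in black. The migratory mean is above the resident mean by about 500 bp or more at Il2ra +10.7 kb, Il2ra +20.0 kb and Il15 +0.7 kb, and below it at Il2rb -4.4 kb.

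At Il2ra +10.7 kb the widest peak averaged 1147 ± 108.6 bp in migratory libraries, against 638.2 ± 142.7 bp in resident ones (SD, n = 16 and 12), a log2 difference of 0.88 with an SE of 0.106. At Il2ra +20.0 kb (chr2:11662059-11663548) it averaged 1297.3 ± 366 bp in migratory and 704.3 ± 227.6 bp in resident libraries. In 1 migDC2 library (Cre-positive 1) a peak of 2539 bp joined this region with the one at +21.5 kb (chr2:11663819-11664706), where the averages were 832.3 ± 495.2 bp in migratory and 445.7 ± 217.8 bp in resident libraries. At Il15 +0.7 kb the peak averaged 1505.1 ± 291.7 bp in migratory and 955.7 ± 177 bp in resident libraries, a log2 difference of 0.66 with an SE of 0.109. The fifth wider region, Il15ra +3.4 kb (chr2:11708206-11708998), differed little, with 649.3 ± 77.1 bp in migratory and 559.2 ± 57.5 bp in resident libraries. Il2rb -4.4 kb was the narrower one, at 483 ± 88.7 bp in migratory and 728.8 ± 157.9 bp in resident libraries. The Il15ra promoter region did not pass, at 1151.6 ± 302.2 bp in migratory and 1021.2 ± 155.8 bp in resident libraries. Within plain-titled libraries 3 of the 10 were wider and 0 narrower.

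The resident subsets were compared with each other. Of 11 tested member regions, 2 were less often called in cDC2 than in cDC1 and 0 more often, where 13.4% and 2.16% of all 31371 tested regions passed in those directions. Both had a peak in 0 of 6 cDC2 and 6 of 6 cDC1 libraries, with an adjusted p of 0.0321 in the exact test. They were Il15ra +17.6 kb, described above, and Il2ra +25.4 kb (chr2:11668009-11668406), which was also present in 15 of 16 migratory libraries. Neither call held with equal list lengths or with a signal minimum of 400, and the cDC2 lists were shorter than the cDC1 lists (38455 to 56115 against 50682 to 69544 peaks). The Il2ra promoter region, with a peak in 5 of 6 cDC2 and 0 of 6 cDC1 libraries, ran against that difference in length but did not pass (adjusted p = 0.064, exact test). Il2ra -0.1 kb did pass with equal list lengths, with the same counts (adjusted p = 0.0431, exact test). It also passed when cDC2 Cre-negative replicate 1, the only cDC2 library without the peak, was left out (adjusted p = 0.0304, exact test). That omission makes the split complete by the choice of library, so its pass adds no weight. Of the 12 libraries left out in turn, only cDC1 Cre-negative replicate 2 and cDC1 Cre-positive replicate 2 also gave a pass (adjusted p = 0.0481 each, exact test).

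Among the migratory subsets no member region passed. Between DN migDC and migDC2, 6 member regions could be tested and 0% of all 22285 tested regions passed in either direction. The smallest p that this design allows is 0.005, and 2229 regions would have had to reach it for any to pass, where 320 did. Over all regions 1377 had an unadjusted p under 0.05, and 1 of them was a member. That member was Il15 +36.3 kb, with a peak in 0 of 6 DN migDC and 6 of 6 migDC2 libraries (p = 0.005 and adjusted p = 0.324, exact test). Il2rb +17.9 kb (chr15:78493537-78493906) was called in 4 of 6 DN migDC libraries and in no other library of the 32 (adjusted p = 0.511 against migDC2, exact test). The DN migDC libraries also had the most B cell marker regions, 9 to 23 of 28, against 6 to 19 in migDC2 libraries. The part of B cells in that peak was not tested. Between migDC1 and migDC2, 2 member regions could be tested, 0% of all 20987 tested regions passed, and 6400 had an unadjusted p under 0.05, none of them a member. The smallest adjusted p over all regions was 0.0594, and 4198 regions would have had to reach the smallest p of 0.01 where 3533 did. With equal list lengths 2025 regions of the whole table were more often and 1509 less often called in migDC1, and 0 of these were members. In that comparison Il15ra +30.9 kb had the smallest member p (0.06, adjusted 0.137, exact test), with a peak in 4 of 4 migDC1 and 1 of 6 migDC2 libraries.

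The study asked whether signalling through the interferon-gamma receptor shapes the chromatin of these cells. For the 4 genes no difference between Cre-positive and Cre-negative libraries passed. All 28 testable member regions were compared with the subset as strata (14 libraries against 14). None passed, none had an unadjusted p under 0.05, and the smallest was 0.167 at Il2rb -3.2 kb, with a peak in 9 of 14 Cre-positive and 13 of 14 Cre-negative libraries (exact test). Only subsets in which some libraries had a peak and others did not bear on this test. For many member regions a p under 0.05 was therefore not possible. Over all 61445 tested regions 0% passed in either direction and 170 had an unadjusted p under 0.05. The smallest p that the design allows is 2.08e-06. At that p 3 regions would have had to reach it for any to pass, where 0 did, so a single region that followed the genotype in every library could not have passed on its own.

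Many member regions were identical in count between the genotypes. Il2ra +2.7, +4.5, +12.7, +14.8 and +44.3 kb, Il15ra +1.8 kb and Il15 +30.2 kb each had a peak in 8 of 14 Cre-positive and 8 of 14 Cre-negative libraries, which were the migratory ones. Each of these regions was called in all or none of the libraries of every subset, which fixed the outcome of the genotype test. The Il2ra promoter region had a peak in 11 of 14 Cre-positive and 10 of 14 Cre-negative libraries. At Il15 +2.0 kb the counts were 8 of 14 Cre-positive and 6 of 14 Cre-negative libraries. The whole genotype difference there lay in migDC1, with 2 of 2 Cre-positive and 0 of 2 Cre-negative libraries, a split that 2 against 2 libraries cannot test below an exact p of 0.333. Groups of 3 against 3 cannot go below 0.1, so genotype within a single subset was not tested.

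Strength and width also overlapped between the genotypes. The Il15 +0.7 kb peak had a median rank of 95.3% in Cre-positive and 95.2% in Cre-negative libraries, with ranges of 49.9 to 98.5% and 25.3 to 98.6% that reflect the subsets. The Il2ra +10.7 kb peak had medians of 88.5% in Cre-positive and 89.8% in Cre-negative libraries, and the Il15ra promoter peak 81.6% in Cre-positive and 83.0% in Cre-negative libraries. In the limma fit with subset as a covariate, 0 of the 10 regions were wider and 0 narrower, where 0.00855% and 0% of all 23390 fitted regions passed. None of the 10 had an unadjusted p under 0.05, and over all fitted regions 573 did. The log2 width differences were -0.05 with an SE of 0.102 at Il2ra +10.7 kb and 0.07 with an SE of 0.103 at Il15 +0.7 kb. The widths there averaged 905.4 ± 278.3 bp in Cre-positive and 952.5 ± 297.9 bp in Cre-negative libraries at the first, and 1297.1 ± 376.1 bp and 1242.1 ± 375.3 bp at the second (SD, n = 14 each).

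The germline cohort, migDC2 only, gave 2 libraries of each genotype and was described without a test. The KO libraries had 20 and 26 member peaks, against 22 and 23 in the WT libraries. Of the 14 Il2ra regions, KO libraries had 8 and 10 called and WT libraries had 8 and 10. All 4 germline libraries had the migratory regions Il2ra +4.5, +12.7 and +44.3 kb, Il15ra +1.8 kb and Il15 +30.2 kb, as floxed migDC2 had. Il2ra +14.8 kb, Il15 +2.0 kb and Il15 +36.3 kb, called in all 6 floxed migDC2 libraries, were called in none of the 4. The germline lists held 32649 to 42446 peaks, against 54657 to 74330 in floxed migDC2, so list length cannot be told apart from cohort. At Il15 +0.7 kb the rank was 94.3 and 94.4% in KO libraries and 92.5 and 92.9% in WT libraries. At the Il2ra promoter region 1 of 2 KO and 1 of 2 WT libraries had a peak.

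Other genes of the pathway were counted by the same rule in migratory against resident DCs, where 25.0% of all tested regions were more often and 15.1% less often called. No list was tested against that background. Among the other ligands of the common gamma chain family 14 of 20 tested regions were more often and 0 less often called, and they belonged to 2 genes: Il21, a helper T cell cytokine, with 9 of 11, and Il2, its neighbour on the chromosome, with 5 of 7. Il4 and Il7 had 1 tested region each and neither passed. Among the other receptor chains 14 of 35 were more often and 0 less often called, with 5 of 13 in Il21r, 4 of 5 in Il7r, 3 of 8 in Il9r and 2 of 9 in Il4ra. Il2rg, the common gamma chain itself, had 1 region, which was too constant to test.

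The JAK and STAT genes of these receptors had 9 of 29 tested regions more often and 5 less often called, with Stat5b at 4 more and 2 less and Jak1 at 2 more and 3 less. Feedback inhibitors had 10 of 36 more often and 1 less often called, led by Socs3 with 3 of 10, and the 1 lower region was at Socs2. Adaptors and kinases had 29 of 106 more often and 11 less often called, with 15 of 36 in Pik3r1, a regulatory subunit of PI3 kinase, and 4 of 14 less often called in Gab2, a docking adaptor. Survival and fate targets had 18 of 69 more often and 6 less often called, with Bcl2 at 5 more and 2 less of 15. Regulators of Il15 transcription had 23 of 45 more often and 2 less often called. Irf1, the interferon-induced activator, had 9 of 14 and Relb 3 of 3, while Nfkb1 had 6 more and 2 less of 20. The shares called more often among feedback inhibitors, adaptors and kinases, and survival targets lay near the 25.0% of all regions. None of these lists had a region that passed between Cre-positive and Cre-negative libraries.

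The genes whose calls most resembled each member over the 28 floxed libraries were listed by Pearson correlation of the percent of regions called, after the percent over all assigned regions was subtracted, among 5668 genes with at least 5 regions. The nearest to Il2ra were Dnaic2, Il21 and Rad21 (r = 0.97 each), to Il15 Tmem131l (0.95), Sema6d (0.94) and Micall1 (0.94), and to Il15ra Zfp451 (0.91), Ncoa7 (0.89) and Galk2 (0.88). Il2rb had no gene as close, with Prnp, Ctif and Tcf7 at 0.7. The points share subsets and libraries, so these values describe a shared migratory and resident pattern across libraries and carry no test.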

How the data were processed

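Omni-ATAC-seq libraries were processed by the submitters. Their processing notes name Bowtie2, Genrich and deepTools and the build mm10, with no version, setting or shift of read ends stated. The authors deposited 1 narrowPeak list per library, so peaks were not called on pooled samples. Column 7, a signal value as deposited by the authors, begins just above 200 in every list. The −log10 p-value as deposited was used only to order ties. Neither gives depth.

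Stretches of at least 100 bp covered by at least 3 of the 32 lists formed the regions, and a call meant that some peak of the library shared 50% or more of its own length or of the region's. Peaks on the autosomes and X were used. Regions were assigned to protein-coding genes of the RefSeq table (GRCm38.p6). Groups come from the sample labels, and replicate numbers are in accession order. Calls were compared with an exact conditional test with genotype or subset as strata, and widths of the widest peak with limma 3.58.1 (R 4.3.3), each over all regions with Benjamini-Hochberg adjustment at 0.05. Both were tested on simulated data. In comparisons of 4 or 6 libraries a side, none of 200 changed regions among 20000 was recovered, against 81.7% to 97.9% of 8000.

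The members, gene lists, markers and the rule for the regions named were chosen with earlier results of these data known. The rule took the region over each gene's start, up to 4 passing regions per gene and direction, and each gene's strongest peak, and other regions were named after their values were seen. The floxed exon of Ifngr1 is not given, so peaks do not check its loss. Alternatives were equal list length, a signal minimum of 400, any overlap, regions of at least 6 libraries, no filter on tested regions, gene bodies only, genes of any kind, plain or lettered titles only, a replicate block, width in bp and each library left out. Leaving out DN migDC and Cre-negative libraries only were added after seeing the data.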

Additional observations from a re-analysis of the deposited data

Results flagged for a closer look

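In 4 of 30 checks of region or peak counts in the floxed subsets, for each gene or the 4 together, 1 library stood apart from the rest. The gap test used flags about 1 in 20 groups by chance where values are continuous. That rate does not hold for small tied counts, where a library that differs from equal ones is always flagged. Each of the 4 libraries differed by a single region from libraries that were all alike. For Il15, migDC2 Cre-positive replicate 2 had 12 regions called and the other migDC2 libraries had 13. For Il15ra, migDC2 Cre-negative replicate 3 and DN migDC Cre-negative replicate 3 had 5 each, against 4 in the rest of their subsets. For Il2rb, migDC2 Cre-negative replicate 1 had 5, against 4 in the others.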

How the results depend on the processing

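No member region that passed with the main settings reversed its direction in the settings that followed single regions. Migratory against resident, 17 member regions more often and 1 less often called became 12 (10 of the 17) and 1 (Il2rb -3.2 kb, not Il15ra +17.6 kb) with equal list lengths, 11 and 0 within plain titles, and 11 and 0 within Cre-negative libraries, and 0 less at a signal minimum of 400. Leaving out 1 library gave 17 to 19 more and 1 less. For migDC1 against cDC1, 12 more and 1 less became 7 (6 of the 12) and 0 at the minimum of 400 and 0 less with equal list lengths. There, left-out libraries gave 0 to 12 more and 0 to 1 less. The 0 arose from each of the 4 migDC1 libraries, without which the smallest p allowed is larger. For migDC2 against cDC2, 17 more became 11 (8 of the 17) with equal list lengths, and left-out libraries gave 17 to 18. Within plain titles only 4 member regions could be tested and 0 passed, but so few migDC2 libraries allow no region to pass. For cDC2 against cDC1, 0 more and 2 less became 1 (Il2ra -0.1 kb) and 0 with equal list lengths. At the minimum of 400 both were lost and 1 other was less often called, Il15 -13.6 kb. Left-out libraries gave 0 to 1 more (1 without cDC2 Cre-negative replicate 1, cDC1 Cre-negative replicate 2 or cDC1 Cre-positive replicate 2) and 2 to 5 less (5 without cDC1 Cre-positive replicate 2). For width, 5 wider became 2 at the minimum of 400 and 3 within plain titles, and 1 narrower became 0 within plain titles and 1 to 2 with a library left out. Over all regions the share called more often among those passing moved from 62.3% to 45.7% for migratory against resident, from 90.3% to 57.1% for migDC2 against cDC2 and from 13.9% to 44.8% for cDC2 against cDC1 with equal list lengths, and to 90.0% and 81.7% for migratory against resident within plain titles and Cre-negative libraries. The cause was not tested. No genotype call arose under any alternative. Whether numbers in the lettered titles pair libraries could not be decided from 2 lettered libraries per group (correlations -0.032 to 0.191). The replicate block gave 0 calls, as without it, but it was too small to give any. Depth is unknown, so a weak peak cannot be told from none.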
